A study of Mus musculus with 12 samples.

Results

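The genes described here encode 6 insulin-like growth factor (IGF) binding proteins, Igfbp2, Igfbp3, Igfbp4, Igfbp5, Igfbp6 and Igfbp7, and the type 1 IGF receptor, Igf1r. They were chosen as members of one signalling family, with earlier results of these data known. They are 7 of the 22180 genes that the arrays measured under a single gene symbol. Each of the 7 was read by 1 probe set. The study asked how keratinocytes, the main cells of the epidermis, that cannot carry out autophagy respond to paraquat, a herbicide that generates superoxide inside cells by redox cycling. Atg7, an enzyme needed to form autophagosomes, was deleted with a Cre recombinase driven by the keratin 14 promoter, which is active in basal keratinocytes. The 12 mouse keratinocyte cultures fell into 4 groups of 3. KO paraquat cells were Atg7 f/f and K14::Cre + and received 20 µM paraquat. The wt paraquat cells were Atg7 f/f and K14::Cre -, with the same treatment. KO sham and wt sham cells had these 2 genotypes and a sham treatment. Cells of every group thus carried the floxed Atg7 allele, and RNA was taken after 48 h. Nothing in the labels says whether the cultures of a group came from separate animals, so p-values measure only the spread between these samples, which may be technical.

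IGF1 and IGF2 signal through the type 1 IGF receptor, a tyrosine kinase that recruits IRS adaptors, PI3K and AKT, and AKT in turn keeps FOXO transcription factors out of the nucleus. The IGF-binding proteins are secreted. They hold IGFs away from the receptor or release them near it, and proteases that cleave the binding proteins free the ligand. In skin, IGF1 comes mainly from dermal fibroblasts, while keratinocytes carry the receptor, and in human epidermis IGFBP3 is made by basal keratinocytes.

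The arrays matched their labels at the targeted gene. Atg7 had signals of 129, 148 and 96 in KO paraquat cells, 442, 442 and 457 in wt paraquat cells, 105, 111 and 103 in KO sham cells, and 293, 356 and 286 in wt sham cells. Where its probes lie relative to the deleted exons is not given in the sources used here. Signals are the deposited probe-set intensities on a linear scale, whose median lay between 42 and 45 in every array. The basal keratinocyte markers Krt14 and Trp63 were bright in every array, from 8933 to 11102 and from 801 to 1068. Krt15, a basal marker on the same list, was dim, at 21 to 41, below every array median. Some markers of other cell types also had a mean above 45, the highest array median. These were 10 of 16 fibroblast, 6 of 12 melanocyte, 4 of 12 endothelial and 2 of 14 leukocyte genes. For hair follicle and sebaceous genes it was 6 of 14. This cut is low, as 13054 of all 22180 genes lay above the array median in at least 3 arrays. Within these lists the fibroblast gene Dcn (15 to 33) and the endothelial gene Cdh5 (28 to 36) lay below the array medians. So did the pan-leukocyte gene Ptprc (13 to 21). The fibroblast gene Fbln2 had 166 to 175 in wt paraquat and 429 to 530 in KO sham cells, its lowest and highest groups. The endothelial gene Kdr had 137 to 162 in KO paraquat and 197 to 295 in wt paraquat cells. It had 45 to 73 in KO sham and 47 to 62 in wt sham cells. With paraquat 3 of 12 endothelial genes were called higher and 1 lower in KO cells (limma, adjusted p under 0.05). In wt cells 3 were higher and 0 lower. Either way, 27.1% of all genes were called in KO and 29.2% in wt cells. Cd68, on the leukocyte list, had 1214 to 1482 in KO paraquat and 1778 to 1870 in wt paraquat cells. Its sham signals were 585 to 688 in KO and 559 to 610 in wt cells. The melanocyte gene Mlana ranged from 340 to 398 in paraquat cultures and from 53 to 77 in sham cultures. Most of its list did not follow. In each genotype 4 of the 12 melanocyte markers were called higher with paraquat and 0 lower (limma, adjusted p under 0.05). Of all genes, 14.5% were called higher in KO and 14.9% in wt cells. The median log2 change of the 12 was 0.126 in KO and 0.287 in wt cells, and Tyr stayed at 7 to 12. The 3 wt sham arrays were less alike than those of the other groups, with second principal component scores of 11.4, 31.4 and 20.4 for arrays 1, 2 and 3, against -16.9, -20.9 and -18.5 in KO sham cells. In RNA from whole cultures, fewer cells of a type and less RNA per cell cannot be told apart.

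The members differed widely in how much they varied. Between the lowest and the highest of the 12 arrays, Igfbp2 spanned 6.11-fold and Igfbp3 5.27-fold, and the SD of their log2 signals exceeded that of 99.3% and 97.4% of all genes. Igf1r spanned 1.83-fold and Igfbp4 1.82-fold, above 84.8% and 76.9% of genes. Igfbp5, Igfbp6 and Igfbp7 spanned 1.32-fold, 1.21-fold and 1.3-fold, which left them below most genes in spread.

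**Figure D1:**
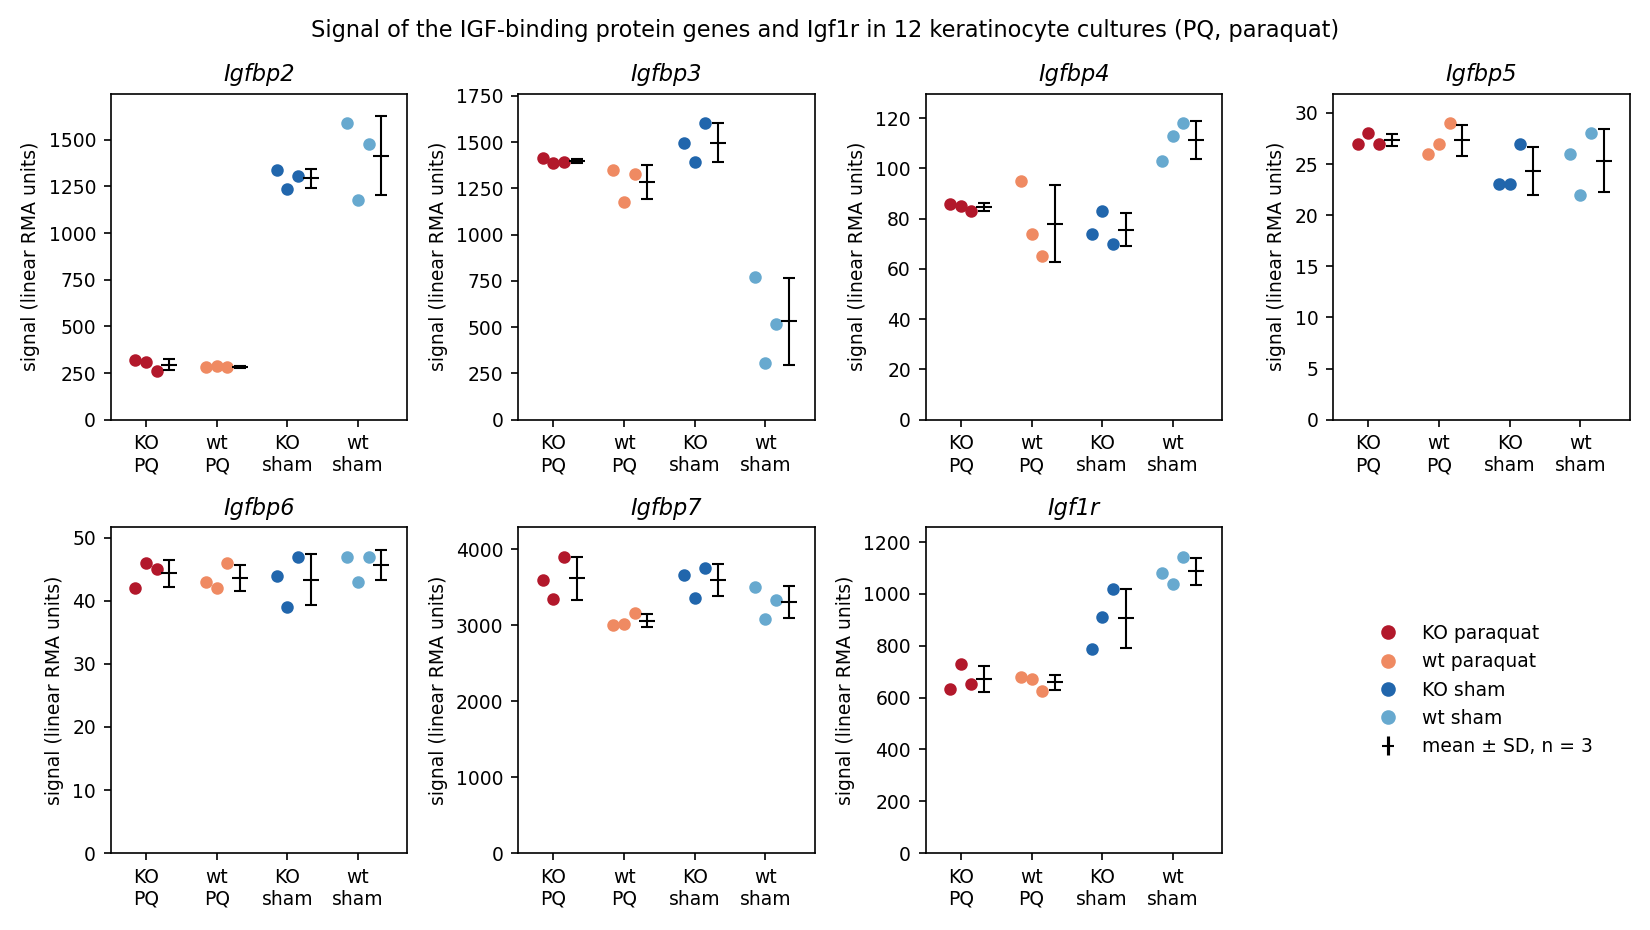
Signal of each gene in the 12 arrays (linear RMA units; each panel has its own axis from 0), by group, with the mean and SD of the 3 arrays in black. Igfbp2 and Igf1r are low in all 6 paraquat arrays, Igfbp3 is low only in the 3 wt sham arrays, and Igfbp4 is highest there.

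The stretches just before the RefSeq start sites of Igfbp2, Igf1r and Igfbp3 are shown because these 3 genes carry the main differences below, Igfbp2 and Igf1r with paraquat in both genotypes and Igfbp3 in another pattern. Each is 250 bases of GRCm38.p6, 5′ to 3′ on the strand of the gene, ending at the base before the start. Capitals mark matches on either strand to 5 motifs. The TATA box was searched as TATAAA. The GC box, bound by Sp1 and its relatives, was searched as GGGCGG. The E-box, bound by basic helix-loop-helix factors, was searched as CACGTG. The AP-1 motif, bound by Fos and Jun proteins, was searched as TGACTCA. The forkhead motif, bound by FOXO and related factors, was searched as GTAAACA. No 2 marked matches overlap.
Igfbp2, chr1:72824230-72824479, plus strand: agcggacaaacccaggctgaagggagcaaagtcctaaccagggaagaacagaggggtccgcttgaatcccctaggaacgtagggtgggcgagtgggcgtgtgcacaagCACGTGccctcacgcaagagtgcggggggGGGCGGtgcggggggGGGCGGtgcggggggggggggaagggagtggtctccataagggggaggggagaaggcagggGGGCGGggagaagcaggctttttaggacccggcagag
Igf1r, chr7:67952007-67952256, plus strand: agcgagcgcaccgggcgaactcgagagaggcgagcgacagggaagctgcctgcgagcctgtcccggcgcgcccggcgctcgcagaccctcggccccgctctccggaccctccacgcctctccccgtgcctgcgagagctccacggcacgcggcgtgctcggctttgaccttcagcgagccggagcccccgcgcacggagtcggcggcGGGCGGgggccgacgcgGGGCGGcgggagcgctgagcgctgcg
Igfbp3, chr11:7213924-7214173, minus strand: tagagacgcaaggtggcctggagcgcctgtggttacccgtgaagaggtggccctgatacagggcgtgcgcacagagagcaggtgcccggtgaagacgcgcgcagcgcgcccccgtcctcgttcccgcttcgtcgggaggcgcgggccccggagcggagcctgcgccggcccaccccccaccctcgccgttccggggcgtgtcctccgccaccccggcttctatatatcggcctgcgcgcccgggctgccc
The Igfbp2 window held 3 GC boxes and 1 E-box, at 67.2% GC with 14 CpG. The Igf1r window held 2 GC boxes, at 77.6% GC with 42 CpG. The Igfbp3 window matched none of the 5 motifs, at 73.2% GC with 32 CpG, which says only that these letters are not in this stretch. Of 32851 promoter windows of the same length, 32.7% held the GC box, 6.02% the E-box, 12.4% the TATA motif, 4.46% the AP-1 motif and 3.17% the forkhead motif, and the median window had 6 CpG. Igfbp2 has a second listed start, whose window held 1 AP-1 match and none of the other 4. The matches describe the sequence, and binding was not measured.

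Igfbp2 was the member with the largest response to paraquat. It encodes a secreted binding protein for both IGFs that also carries an RGD sequence through which it can bind integrins. Its signals were 318, 308 and 260 in KO paraquat cells and 280, 289 and 281 in wt paraquat cells, against 1336, 1234 and 1308 in KO sham cells and 1589, 1178 and 1478 in wt sham cells. All 6 paraquat arrays lay far below all 6 sham arrays, and within each treatment the genotypes overlapped. In KO cells the fall was 4.39-fold (log2 change -2.13, SE 0.11, limma adjusted p = 5.69e-08). In wt cells it was 4.96-fold (log2 change -2.31, SE 0.11, adjusted p = 1.055e-08). The KO response minus the wt response was 0.17 on the log2 scale (95% confidence interval -0.17 to 0.51, adjusted p = 0.669), so no difference between the genotypes was detected. Of 16 markers of fibroblasts, which also make IGF-binding proteins, 1 was higher and 3 lower with paraquat in KO cells. In wt cells 2 were higher and 4 lower. Beside these counts, 27.1% of all genes were called in KO and 29.2% in wt cells. The median log2 change of the 16 markers was 0.00945 in KO and -0.0335 in wt cells. Postn, Fbln1 and Fbln2 fell in both genotypes, and Pdgfra rose in both. The summed signal of the 16 genes was 1111 to 1147 in KO paraquat and 1037 to 1161 in wt paraquat arrays, against 1374 to 1619 in KO sham and 1307 to 1808 in wt sham arrays. The summed signal of 11 keratinocyte markers was likewise lower with paraquat, at 33926 to 35977 in KO paraquat and 33646 to 34727 in wt paraquat arrays, against 38422 to 40671 in KO sham and 39305 to 41772 in wt sham arrays. The part of these cell markers in the Igfbp2 result was not tested.

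Igf1r was lower with paraquat too. The signals of this receptor kinase were 635, 730 and 652 in KO paraquat cells and 678, 672 and 626 in wt paraquat cells, against 788, 912 and 1018 in KO sham cells and 1081, 1040 and 1144 in wt sham cells. The paraquat arrays of the 2 genotypes overlapped, and each sham group lay above both. Igf1r fell 1.34-fold in KO cells (log2 change -0.43, SE 0.10, adjusted p = 0.00544) and 1.65-fold in wt cells (log2 change -0.72, SE 0.10, adjusted p = 7.67e-05). Without paraquat, all KO arrays lay below all wt arrays, by a narrow gap of 1018 against 1040. That difference was -0.27 on the log2 scale (95% confidence interval -0.49 to -0.06) and did not pass over all genes (adjusted p = 0.113, unadjusted p = 0.017). The KO response minus the wt response was 0.30 (95% confidence interval -0.00 to 0.60, adjusted p = 0.335).

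Igfbp3, the main IGF carrier of the circulation and a gene that p53 can induce in human cells, differed between the genotypes in sham cultures. Its signals were 1412, 1389 and 1394 in KO paraquat cells, 1349, 1176 and 1327 in wt paraquat cells, and 1496, 1391 and 1602 in KO sham cells, against 772, 304 and 517 in wt sham cells. The 3 wt sham arrays were low and far apart, and the other 9 lay between 1176 and 1602. Under paraquat all KO arrays lay above all wt arrays, by a narrow gap of 1389 against 1349. That difference was 0.13 on the log2 scale and was not called (limma adjusted p = 0.897). The SD of the log2 signal was 0.674 in wt sham cells, against 0.0125 in KO paraquat, 0.108 in wt paraquat and 0.102 in KO sham cells. In sham cultures Igfbp3 was 3.02-fold higher in KO than in wt cells (log2 difference 1.59, SE 0.23, adjusted p = 0.0009059). In wt cells it rose 2.59-fold with paraquat (log2 change 1.37, SE 0.23, adjusted p = 0.0004275). In KO cells the change was -0.10 (95% confidence interval -0.59 to 0.40, adjusted p = 0.8225). The fit shares 1 spread per gene over the 4 groups, so this interval carries the scatter of the wt sham arrays. In comparisons with wt sham cells the shared spread understates the scatter of those arrays. The KO response minus the wt response was -1.47 (SE 0.33, 95% confidence interval -2.17 to -0.76, adjusted p = 0.03495). These comparisons share the wt sham arrays and are not independent of each other. Without wt sham array 2, the lowest, the KO against wt difference in sham cultures was 1.24 and the wt response 1.02, both still past the threshold. Over 16 alternatives the limma adjusted p reached 0.033 for the sham difference and 0.0152 for the wt response. The call on the difference of responses was less stable: it was lost in 10 of the 12 fits that each left out 1 array, and its adjusted p ranged from 0.00161 to 0.0855 over 21 alternatives.

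Igfbp4, a binding protein that inhibits IGF action until the protease PAPP-A cleaves it, was highest in wt sham cells. Its signals were 86, 85 and 83 in KO paraquat cells, 95, 74 and 65 in wt paraquat cells, and 74, 83 and 70 in KO sham cells, against 103, 113 and 118 in wt sham cells. No array of another group reached the lowest wt sham array, and the other 3 groups overlapped or met. In sham cultures Igfbp4 was 1.47-fold lower in KO than in wt cells (log2 difference -0.56, SE 0.12, adjusted p = 0.0106). In wt cells it fell 1.44-fold with paraquat (log2 change -0.53, SE 0.12, adjusted p = 0.00449). In KO cells the change with paraquat was 0.17 (95% confidence interval -0.10 to 0.43, adjusted p = 0.377). The KO response minus the wt response was 0.69 (95% confidence interval 0.32 to 1.07), which missed the threshold over all genes (adjusted p = 0.0568, unadjusted p = 0.00145).

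Igfbp7, whose product binds IGFs with lower affinity than the other family members, varied little. Its signals were 3598, 3345 and 3900 in KO paraquat cells, 3002, 3014 and 3158 in wt paraquat cells, 3660, 3360 and 3756 in KO sham cells, and 3497, 3075 and 3328 in wt sham cells. Under paraquat the KO arrays lay above the wt arrays, without overlap, and in the other 3 pairs of groups compared the arrays overlapped. That difference was 0.24 on the log2 scale (95% confidence interval 0.05 to 0.42), with an adjusted p of 0.302 (unadjusted p = 0.0152). The change with paraquat was 0.01 in KO cells (95% confidence interval -0.18 to 0.19) and -0.11 in wt cells (-0.29 to 0.08).

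Igfbp5, which binds the extracellular matrix as well as IGFs, and Igfbp6, which prefers IGF2, were dim. Igfbp5 had signals of 22 to 29 and lay above the array median in 0 of 12 arrays. Igfbp6 had signals of 39 to 47 and lay above the median in 6. Intensities this low are near the level of the dimmer probe sets, so the arrays can show little for either gene. The change of Igfbp5 was 0.17 in KO cells (95% confidence interval -0.05 to 0.39) and 0.12 in wt cells (-0.10 to 0.33). That of Igfbp6 was 0.04 in KO cells (-0.15 to 0.23) and -0.06 in wt cells (-0.25 to 0.12). In the reference gene order Igfbp5 is the next gene to Igfbp2 and runs towards it from the other strand, so of these neighbours Igfbp2 fell with paraquat in both genotypes while Igfbp5 gave no call.

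Counted together, 2 of the 7 members were lower with paraquat in KO cells, Igfbp2 and Igf1r, and 0 were higher, beside 27.1% of all genes called in that comparison. In wt cells 3 were lower (Igfbp2, Igf1r and Igfbp4) and 1 was higher (Igfbp3), beside 29.2% of all genes. In sham cultures 1 member was higher in KO than in wt cells (Igfbp3) and 1 lower (Igfbp4), beside 10.2% of all genes. Under paraquat 0 members differed between KO and wt cells by limma's test (1, Igfbp7, at an unadjusted p under 0.05), beside 0.55% of all genes. For the difference of the responses 1 member was called (Igfbp3), beside 2.29% of all genes. The members' share was thus close to the background in KO cells, and the 4 of 7 called in wt cells were above it, but 7 genes are too few to read a share from. The median log2 change of the members was 0.0077 in KO cells and -0.108 in wt cells, against 0.0079 and 0.0088 for all genes. Under paraquat, the intervals for the KO minus wt difference were -0.19 to 0.29 for Igfbp2, -0.37 to 0.62 for Igfbp3 and -0.19 to 0.24 for Igf1r. That of Igfbp3 carries the scatter of its wt sham arrays, through the spread shared by the groups.

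**Figure D2:**
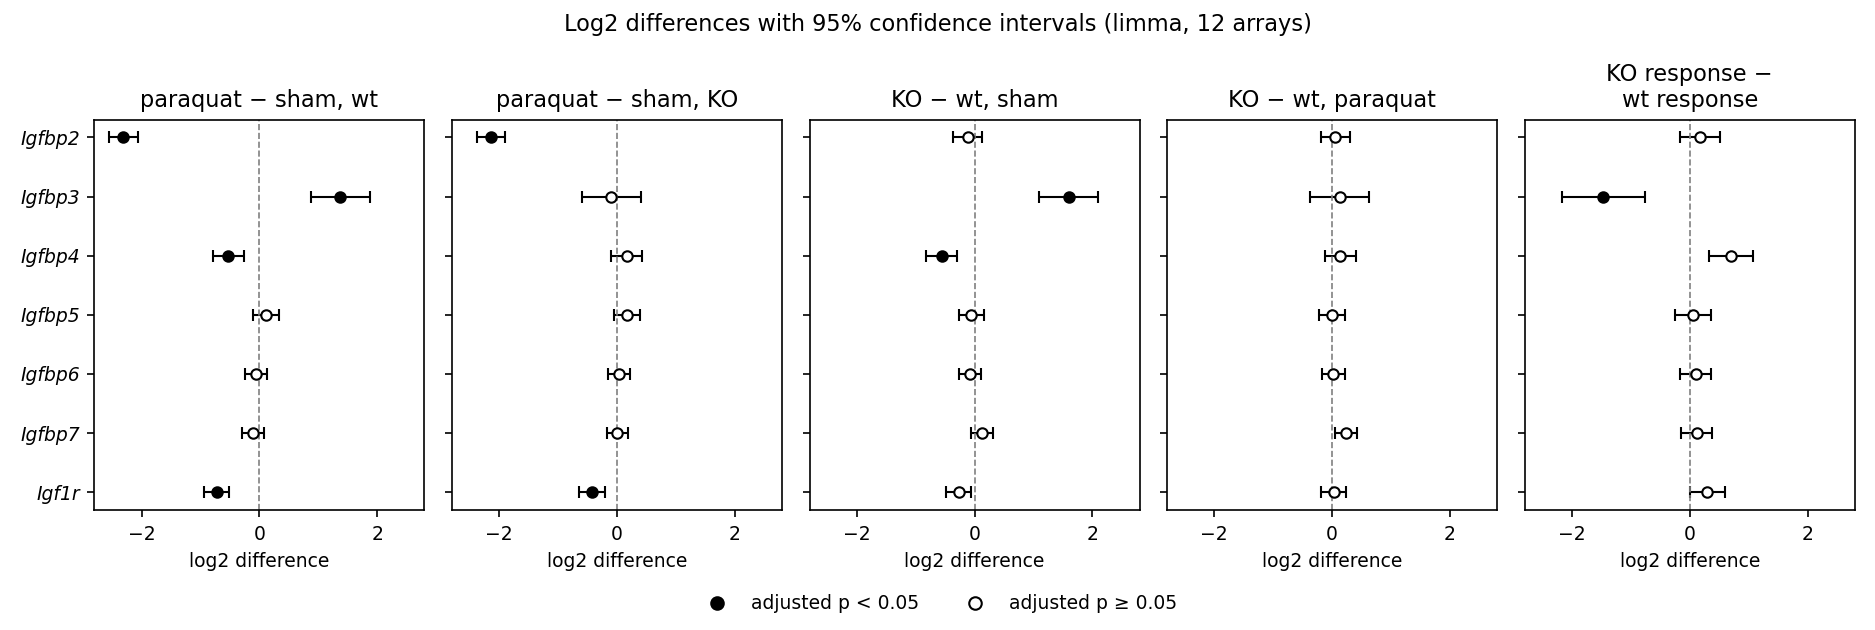
Log2 differences of the 7 genes in the 5 comparisons with 95% confidence intervals from limma (12 arrays), filled where the adjusted p is under 0.05. Igfbp2 and Igf1r lie left of 0 for paraquat in both genotypes, and Igfbp3 is the only one filled in the difference of responses.

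The genes whose array profiles were most like each member were found as the smallest root mean square difference of log2 signals, each centred on its own mean, over the 12 arrays and 11412 genes. Closest to Igfbp2, whose own spread by this measure was 1.12, were Col7a1, the collagen of anchoring fibrils (0.165), Ctsc, the protease cathepsin C (0.18), and Tnc, the matrix protein tenascin C (0.198). Col7a1 had signals of 78 to 87 in KO paraquat and 67 to 88 in wt paraquat cells, against 308 to 400 in KO sham and 279 to 434 in wt sham cells. Closest to Igf1r (spread 0.318) were Herc2, a ubiquitin ligase (0.0599), Lama5, a laminin chain of the basement membrane (0.066), and Atp9a (0.0718). Herc2 ranged from 191 to 222 in KO paraquat and 182 to 199 in wt paraquat cells, against 245 to 283 in KO sham and 297 to 345 in wt sham cells. Closest to Igfbp3 (spread 0.708) were Ifitm3, an interferon-induced antiviral membrane protein (0.236), Ankk1 (0.239) and Tfrc, the transferrin receptor (0.258). Tfrc shared the low wt sham level, with 659 to 730 in KO paraquat, 592 to 678 in wt paraquat and 917 to 980 in KO sham cells, against 254 to 393 in wt sham cells. Closest to Igfbp4 (spread 0.259) were Rab24 (0.115), Cc2d1a (0.118) and Cox6a2 (0.118). For Igfbp5, Igfbp6 and Igfbp7 the nearest genes (Golm1, Marcksl1 and Galnt4) were as flat as they were, with differences of 0.0657, 0.0501 and 0.0644. Among the members the most alike were Igfbp5 and Igfbp6 (0.103) and the least alike Igfbp2 and Igfbp3 (1.57). These are descriptions over arrays that share 4 groups, and carry no test.

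**Figure D3:**
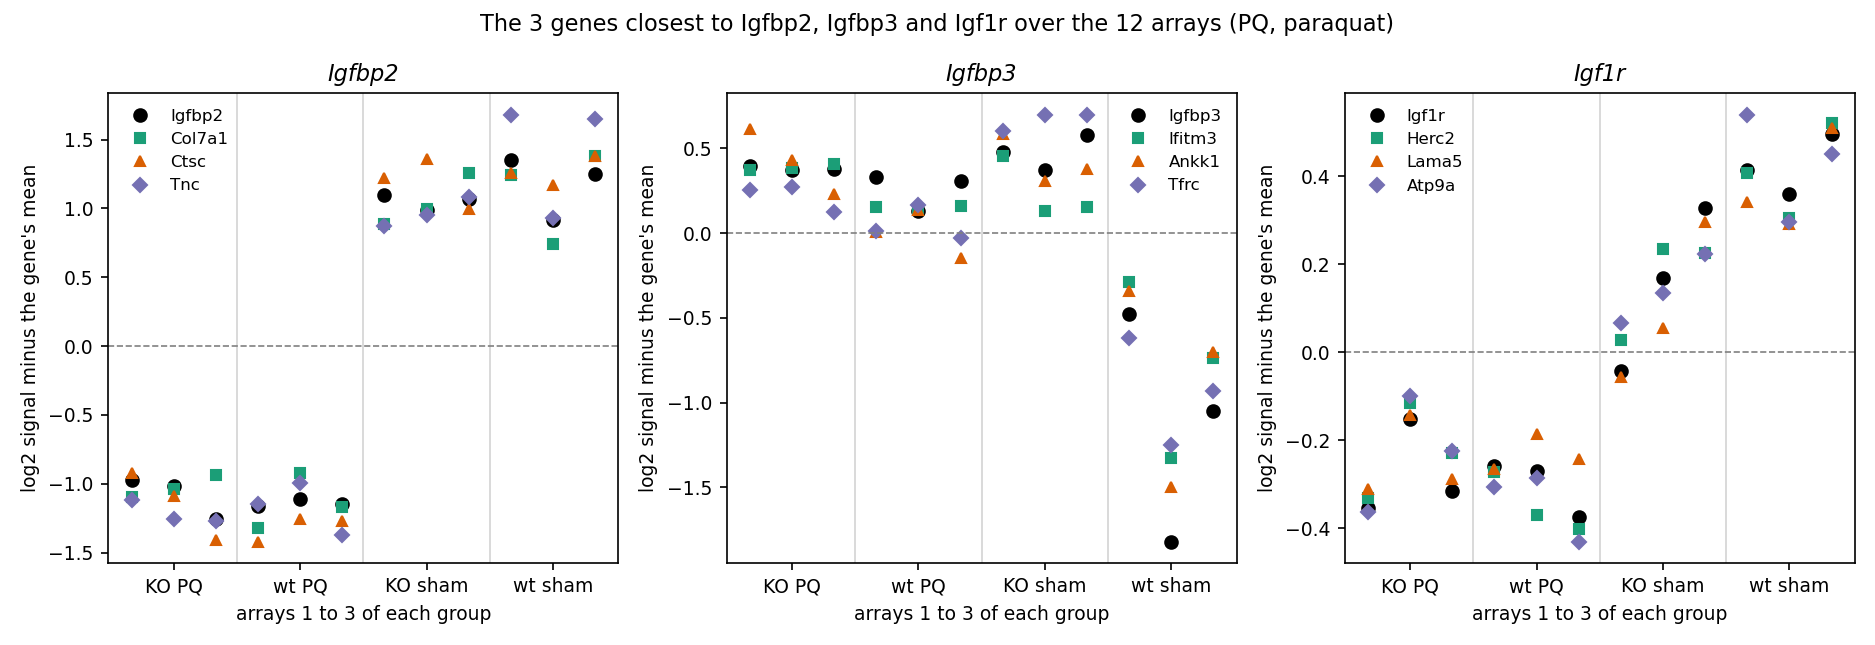
Log2 signal minus the gene's own mean in the 12 arrays for Igfbp2, Igfbp3 and Igf1r (black circles) and the 3 genes closest to each. The Igfbp2 set splits by treatment, the Igfbp3 set drops in the 3 wt sham arrays, and the Igf1r set is lower with paraquat and highest in wt sham cells.

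Other genes of the pathway were taken from lists of 81 genes, of which 75 were measured. With paraquat, 16 of the 75 rose and 14 fell in KO cells, and 12 rose and 21 fell in wt cells, with list medians of 0.0026 in KO and -0.064 in wt cells on the log2 scale, against 0.0079 and 0.0088 for all genes. Of all genes, 14.5% rose and 12.6% fell in KO cells, and 14.9% rose and 14.3% fell in wt cells, and the counts of the lists below are to be read against these shares. In sham cultures 2 were higher and 13 lower in KO than in wt cells (median -0.0998, against -0.00825 for all genes, of which 4.58% were higher and 5.67% lower). Under paraquat 0 were higher and 1 lower in KO than in wt cells, beside 0.55% of all genes called. The difference of responses was called for 4, beside 2.29% of all genes.

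Of the ligands and their carrier, 0 of 4 measured genes (Igf1, Igf2, Ins2 and Igfals) were called in any of the 5 comparisons. Of 9 receptor genes, 1 rose and 2 fell with paraquat in KO cells, and 0 rose and 3 fell in wt cells. Insr, the insulin receptor and the closest relative of Igf1r, had signals of 135, 145 and 143 in KO paraquat and 134, 129 and 144 in wt paraquat cells, against 204, 233 and 229 in KO sham and 278, 272 and 304 in wt sham cells. Both sham groups lay above both paraquat groups, as for Igf1r, and the KO sham arrays lay below the wt sham arrays. It fell 1.57-fold in KO cells (adjusted p = 5.92e-05) and 2.10-fold in wt cells (adjusted p = 5.40e-07), and without paraquat its KO signal was 1.28-fold below that of wt cells (adjusted p = 0.0157, lost in 3 of 16 alternatives, with a highest adjusted p of 0.076). Itgb1, an integrin subunit, fell in both (log2 change -0.52 in KO and -0.72 in wt cells). Lrp1, a receptor that also binds IGFBP3, was lower in KO than in wt sham cells by 0.66 on the log2 scale (log2 difference -0.66, adjusted p = 0.00775).

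Of 14 proteases that cleave IGF-binding proteins and their inhibitors, 1 rose and 4 fell with paraquat in KO cells, and 2 rose and 7 fell in wt cells. Several of them cleave many other proteins. Pappa encodes PAPP-A, which cleaves IGFBP4, and Stc2 encodes an inhibitor of it. Pappa had signals of 83, 67 and 68 in KO paraquat and 51, 68 and 78 in wt paraquat cells, against 98, 102 and 124 in KO sham and 144, 165 and 157 in wt sham cells. It fell 1.49-fold in KO cells (adjusted p = 0.0103, lost in 2 of 16 alternatives) and 2.40-fold in wt cells (adjusted p = 1.95e-05). Stc2 had signals of 62, 69 and 61 in KO paraquat, 70, 54 and 68 in wt paraquat and 81, 70 and 80 in KO sham cells, against 206, 214 and 268 in wt sham cells. Only the wt sham arrays were high, as for Igfbp4. Stc2 fell 3.58-fold in wt cells with paraquat (adjusted p = 1.365e-07) and was 2.96-fold lower in KO than in wt sham cells (adjusted p = 1.20e-05), and its KO response differed from the wt response by 1.57 (adjusted p = 5.46e-04). Adam12, a metalloprotease, fell in both genotypes (log2 change -0.95 in KO and -1.67 in wt cells). Mmp2, a gelatinase that is also on the fibroblast marker list, was lower in KO than in wt sham cells (log2 difference -0.53, adjusted p = 0.00114). Of 13 other proteins with an IGFBP-like domain, 3 rose and 3 fell with paraquat in KO cells, and 1 rose and 3 fell in wt cells. Htra1, a secreted serine protease, fell by 0.72 on the log2 scale in KO and by 1.05 in wt cells. The matricellular protein genes Ccn1 and Ccn2 fell too, with log2 changes of -0.73 and -0.84 in KO cells and of -0.69 for each in wt cells. With the mean over its probe sets, the wt change of Ccn2 was -0.33 and not past the threshold (adjusted p = 0.139).

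Of 14 adaptors and dampers of receptor signalling, 5 rose and 0 fell with paraquat in KO cells, and 4 rose and 4 fell in wt cells. Irs2, which docks PI3K to the receptor, had signals of 401, 354 and 357 in KO paraquat and 355, 354 and 375 in wt paraquat cells, against 195, 190 and 182 in KO sham and 210, 265 and 223 in wt sham cells. It rose 1.96-fold in KO cells (adjusted p = 5.95e-06) and 1.56-fold in wt cells (adjusted p = 1.40e-04). Grb10, an adaptor that restrains the insulin and IGF receptors, had signals of 64, 63 and 57 in KO paraquat, 64, 49 and 54 in wt paraquat and 54, 58 and 55 in KO sham cells, against 141, 297 and 180 in wt sham cells. The wt sham arrays were again the high ones and the most scattered. Grb10 was 3.52-fold lower in KO than in wt sham cells (adjusted p = 1.59e-04), fell 3.54-fold with paraquat in wt cells (adjusted p = 1.11e-05), and its KO response differed from the wt response by 1.96 (adjusted p = 0.00329).

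Of 20 genes of PI3K, AKT and FOXO, 6 rose and 5 fell with paraquat in KO cells, and 5 rose and 4 fell in wt cells. Foxo3, a transcription factor held in the cytoplasm by AKT, rose by 1.11 on the log2 scale in KO cells (adjusted p = 3.93e-06) and by 0.81 in wt cells (adjusted p = 3.76e-05). Pik3r3, a regulatory subunit of PI3K, rose by 0.98 in KO cells (adjusted p = 9.40e-05) and by 1.70 in wt cells (adjusted p = 5.23e-07). The single gene of the lists that differed between the genotypes under paraquat was Pik3cb, a catalytic PI3K subunit, with 877, 871 and 833 in KO paraquat cells against 1238, 1198 and 1075 in wt paraquat cells. Its log2 difference was -0.44 (adjusted p = 0.0236), and the adjusted p ranged from 0.00415 to 0.12 over 16 alternatives, 9 of which passed. Igf2bp3, the 1 measured gene of 3 for proteins that bind the Igf2 mRNA, was called in 0 of the 5 comparisons.

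**Figure D4:**
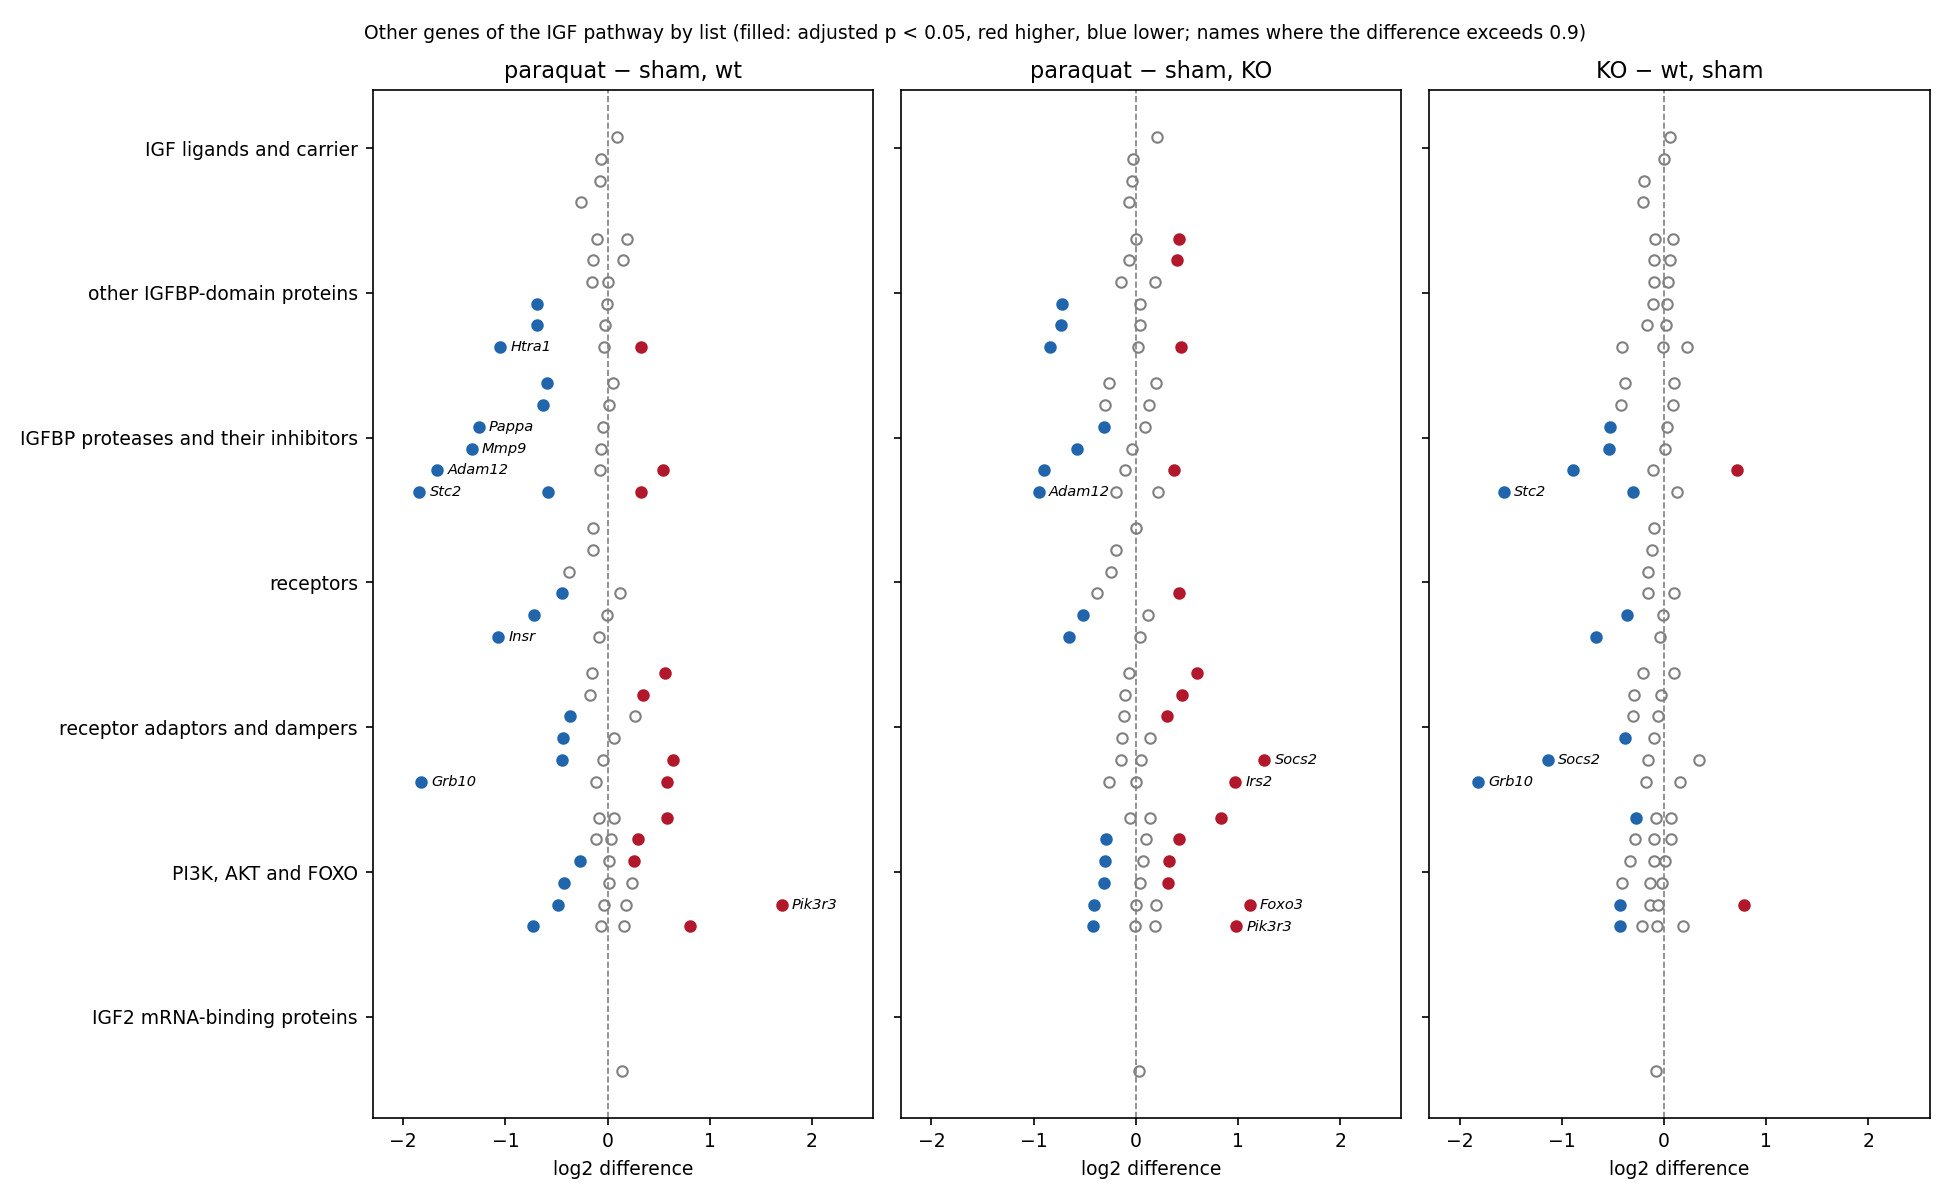
Log2 differences of the 75 measured pathway genes by list in 3 comparisons, 1 point per gene, red where higher and blue where lower at an adjusted p under 0.05, with names where the difference exceeds 0.9. In KO cells 16 genes are red and 14 blue, in wt cells 12 and 21, and between sham cultures 2 and 13.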

How the data were processed

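Total RNA of 12 keratinocyte cultures, 3 per group, was labelled with biotin and hybridised to Affymetrix arrays, 1 per culture. The submitters' processing notes name RMA and Affymetrix Expression Console 1.3.1.187. The intensities deposited for the probe sets are whole numbers from 3 to 17695, read here from their range as linear RMA values, a scale not given in the sources used here, and log2 was taken here of the deposited intensities. The genome build behind the probe sets is not given in the sources used here. The number of arrays limits the precision.

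The platform annotation gave a single symbol to 23521 of 41345 probe sets, several to 1814 and none to 16010. The gene identifiers of 23328 matched a mouse gene table (GRCm38.p6). For the 1082 genes with several probe sets the one with the highest mean stood for the gene, with no filter, which left 22180 genes. One mean per group was fitted to all 12 arrays with limma 3.58.1 (lmFit, eBayes) in R 4.3.3, without a block, and 5 comparisons were tested 2-sided, with Benjamini-Hochberg adjustment over 22180 genes and a threshold of 0.05. The same code was tested on simulated data. Among 100 brighter genes changed 1.5-fold, 42 were recovered for the difference of responses and 71 between sham cultures. Of 100 changed 2-fold, 89 and 96 were recovered in these comparisons. Smaller differences of responses can thus be missed. Promoter windows come from RefSeq.

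The members and gene lists were chosen with earlier results of these data known. Named are the members, Atg7, the 3 genes closest to each member among those brighter than the median probe set, and per list and comparison at most 4 called genes in order of p, besides cell markers. Igfbp1, the ligands, their carrier and Igf2bp3 are named though they were not called. The fit was repeated after another quantile normalization, after centring by array median, with 16 added before log2, with a filter on dim genes, a variance trend, array weights or a replicate block, with the mean over probe sets, on the 6 arrays compared alone, and with arrays left out.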

Additional observations from a re-analysis of the deposited data

Results flagged for a closer look

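For 5 of the genes described, the response to paraquat differed between the genotypes by the test of the difference itself (limma, KO response minus wt response, adjusted over all genes). Igfbp3 had a difference of -1.47 on the log2 scale (adjusted p = 0.03495). Stc2 had 1.57 (adjusted p = 5.46e-04), Grb10 1.96 (adjusted p = 0.003285), Mmp9 1.03 (adjusted p = 0.0327) and Mmp2 0.53 (adjusted p = 0.0308). Stc2 and Grb10 passed in 21 of 21 alternatives. The calls of Igfbp3, Mmp9 and Mmp2 were lost in 10, 9 and 11 of 21 alternatives. Their adjusted p reached 0.0855 for Igfbp3, 0.0895 for Mmp9 and 0.109 for Mmp2. Mmp9 and Mmp2 were also near the array medians outside wt sham cells. In each case the wt sham arrays stood apart from the 9 others, low for Igfbp3 and high for the other 4. Mmp9 had signals of 45, 43 and 38 in KO paraquat, 43, 34 and 38 in wt paraquat and 47, 61 and 48 in KO sham cells, against 98, 75 and 120 in wt sham cells. Mmp2 had 52, 49 and 54 in KO paraquat, 48, 56 and 52 in wt paraquat and 56, 55 and 56 in KO sham cells, against 77, 81 and 84 in wt sham cells. All 5 differences use the same 3 wt sham arrays, among which array 2 had the lowest array weight, 0.562.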

How the results depend on the processing

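Igfbp2 and Igf1r with paraquat in both genotypes, and Igfbp3 and Igfbp4 in wt cells, kept their direction and passed in 16 of 16 alternatives. The call of Igf1r between sham cultures appeared only without KO sham array 3 (-0.36, adjusted p = 0.0481). For the difference of responses, 2 members were called, Igfbp4 beside Igfbp3, after centring on array medians, 16 added, the filter on dim genes, the variance trend and array weights, and 0 to 1 when 1 array was left out. With wt sham 2 and KO paraquat 3 both left out, 1 member was called between sham cultures, Igfbp4 having an adjusted p of 0.0576. Genes called under paraquat, 122 in the fit reported, were 231 with 16 added, 222 with the filter, 223 with the trend, 249 with weights, 3 from the 6 arrays alone, 44 with both arrays left out and 30 to 87 with 1 left out. Those for the difference of responses, 508, were 882 with 16 added, 894 with the filter, 783 with the trend, 268 with both left out and 250 to 700 with 1 left out. Those between sham cultures, 2273, were 976 from the 6 arrays alone, 1360 with both left out and 1418 to 2363 with 1 left out. Small changes, none of them called, turned sign: with paraquat in KO cells Igfbp6 was -0.0035 after the second quantile normalization and -0.0378 to 0.0968 with 1 array left out, and Igfbp7 was -0.0023 after quantile normalization, -0.0153 with weights, -0.0486 with both left out and -0.0486 to 0.0622 with 1 left out. With 1 array left out, Igfbp5 between sham cultures ran from -0.1532 to 0.0207, and in the difference of responses from -0.0195 to 0.1545 (0.1632 with both left out). Under paraquat, also with 1 left out, the KO minus wt values ran from -0.0016 to 0.1436 for Igfbp2, -0.0341 to 0.0447 for Igfbp5, -0.0057 to 0.0603 for Igfbp6 and -0.0328 to 0.0677 for Igf1r. Arrays of the same number did not deviate together (correlations -0.0719 to 0.0902), so the numbers were not taken to pair them; with a replicate block the adjusted p of Igfbp3 in the difference of responses was 0.0275, the block changed no call of a member, and 2 pathway genes were called in that difference in place of 4. The cause of these changes was not tested. Low signals, under the array medians for Igfbp5 and near them for Igfbp6, limit what the arrays show.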
